A study of Mus musculus with 45 samples.

Results

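Microglia were compared between postnatal day 3 (P3) and postnatal day 10 (P10) by bulk RNA sequencing, using the 3 libraries of each age, which make 6 of the 45 libraries of the series. All 6 came from C57BL/6J mice of the genotype Cx3cr1GFP/wt, in which 1 copy of the chemokine receptor gene Cx3cr1 carries green fluorescent protein. The mice had no treatment and were bred in a specific-pathogen-free facility, and the series' design describes the replicates as individual mice. Both ages thus share the reporter allele, and no mouse without it was sampled. The other libraries hold microglia of other ages and 2 further brain macrophage populations, of which the meningeal macrophages (mMΦ, 3 libraries at P3 and 3 at P10, same strain and genotype) serve here as a comparison. The P3 libraries are numbered 2, 3 and 4 and the P10 libraries 1, 2 and 3. Per-library values below follow that order.

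Microglia are the resident macrophages of the brain parenchyma. In the days after birth many of them are amoeboid, collect in developing white matter, clear dying cells and debris, and express genes of phagocytosis and lipid handling. They then branch and build up the so-called homeostatic programme, a set of receptors and secreted proteins such as P2ry12 and Tmem119 that depends on TGF-beta signalling and sets microglia apart from other macrophages.

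Total counts ran from 17618151 to 24270739 per library. P3 replicate 4 belonged to batch S276 and the other 5 libraries to batch S232, as the labels call them. P3 replicate 2 stood apart on the first principal component (28.9% of the variance), at -87.5 against 8.02 to 30.7 for the others. Of its counts 3.69% were mitochondrial, against 0.757 to 1.26%. P3 replicate 4 stood apart on the second component (27.9% of the variance), at 78.4 against -38.1 to 14.4 for the others. P3 replicates 3 and 4 had the sex-linked transcripts of female mice and the other 4 libraries those of males, so that sex and age could not be fully told apart. All 6 libraries held the genes that define microglia, with P2ry12 between 2861 and 11854 CPM (counts per 1000000 scaled counts of the library). The border macrophage gene Lyve1 was at 2.02 ± 3.35 CPM at P3 and 0.387 ± 0.0862 at P10, against 4037 ± 772 and 2333 ± 85.5 CPM in mMΦ.

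Of the 28 genes that passed the test between P3 and P10, 16 belonged to 3 groups of known genes. Members of the homeostatic programme rose, among them Selplg, Tmem119, Sparc, Olfml3 and Cst3. Genes known from amoeboid and white matter microglia fell, namely Spp1, Igf1, Anxa5 and Apoe, together with the apolipoprotein gene Apoc1. A group of stress and immediate early genes, Hspa1a, Nr4a1, Atf3, Jun and Dnajb1, rose as well. The quasi-likelihood F test of edgeR, fitted on the 6 libraries, called 28 of 12029 genes (0.233%) at an adjusted p under 0.05. Of these, 21 were higher at P10 (0.175% of the genes tested), by 1.19 to 3.50 on the log2 scale, and 7 were lower (0.0582%), with log2 fold changes of -1.46 to -4.24. The median over all genes tested was -0.02.

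None of the 28 genes had overlapping libraries: in every one of them the 3 libraries of one age all lay above the 3 of the other, as the plot of levels by library shows. Over all genes tested, 9.24% were higher at P10 and 7.13% lower without overlap. The test was run on the same 6 libraries and favours genes without overlap, so this describes the calls and is no further support. The calls were few and close to the threshold, with adjusted p-values from 0.0308 to 0.0491, and 1027 genes had an unadjusted p under 0.05. In batch S232 alone (2 P3 libraries against 3), no gene was called. The 28 had 0.9 to 1.1 times the log2 fold change there, with unadjusted p-values from 2.26e-05 to 0.000837 and adjusted ones from 0.117 to 0.234. They kept their direction, which leaving out a library cannot turn in genes without overlap. As the genes were chosen on the same libraries, these values are no separate support. Leaving out P3 replicate 2, the library apart on the first principal component, gave 49 calls, 23 of the 28 among them. Without P3 replicate 3 there were 9 calls, and without P3 replicate 4 or any 1 of P10 replicates 1, 2 and 3 there were none, at 1029, 923, 871 and 893 genes with an unadjusted p under 0.05.

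**Figure D1:**
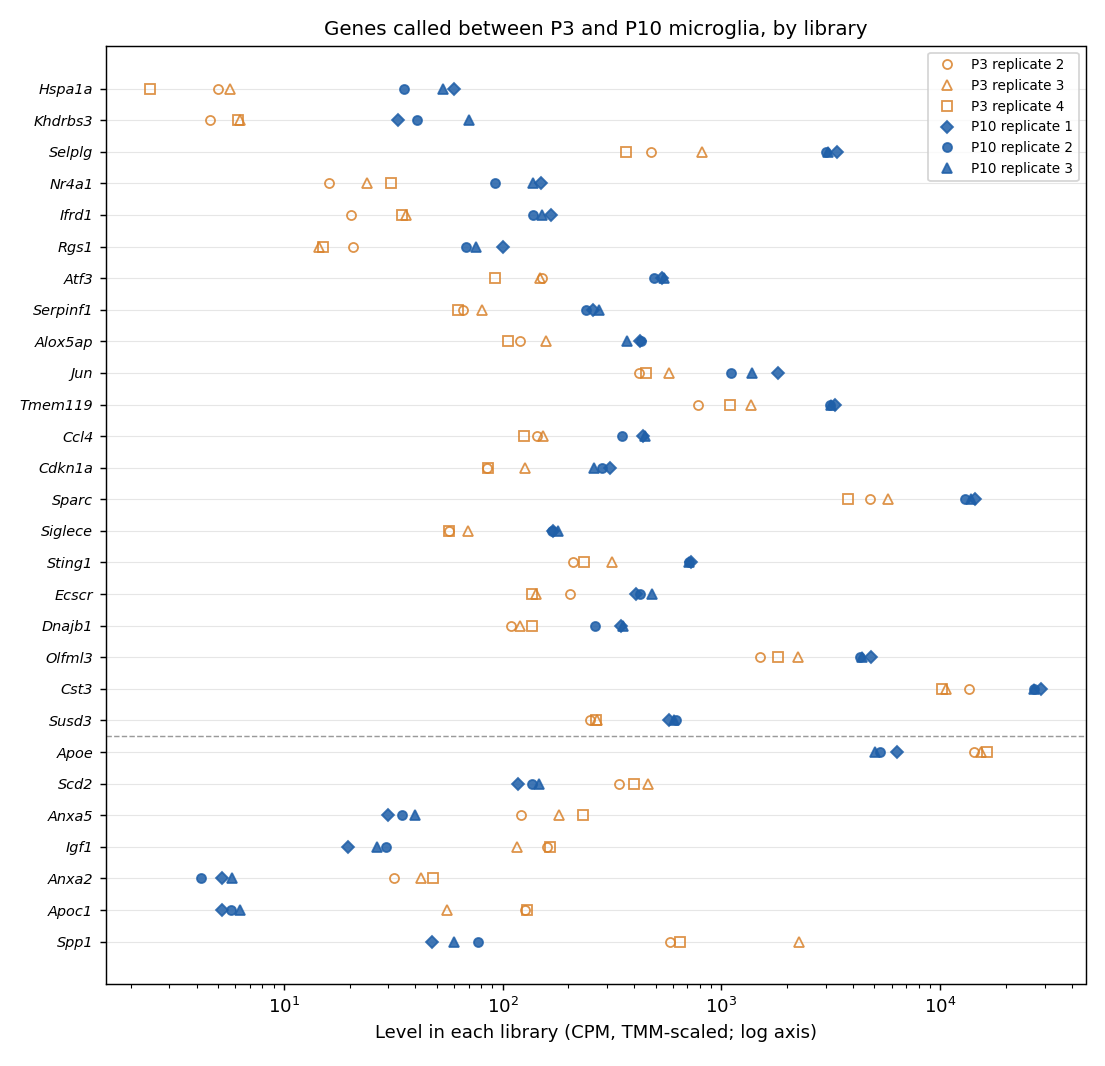
Levels of the 28 called genes in each of the 6 microglia libraries, in CPM on a log axis. Open symbols are P3, filled symbols P10, and the dashed line parts the 21 genes higher at P10 from the 7 lower ones. For each gene the open and filled symbols lie apart, from Hspa1a, below 6 CPM in all P3 libraries, to Cst3, at 26833 CPM or more in all P10 libraries.

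The homeostatic list held 24 genes, all of them tested. Of these, 6 rose, none fell and 18 were not called, with a median log2 fold change of 1.06. Leaving out P3 replicate 2 gave 8 calls in the list and leaving out P3 replicate 3 gave 3. Without P3 replicate 4 or any 1 P10 library none of the 24 was called. By another, descriptive rule (no overlap between the 3 libraries of each age and a mean changed at least 2-fold), 13 of the 24 were higher at P10 and none lower, where 3.45% of all genes tested were higher by that rule and 3.60% lower. Without P3 replicate 2 the count by that rule was 10, against 6.15% of all genes. The summed level of the 24 genes was 53784 to 73120 CPM in the P3 libraries and 121728 to 127670 CPM in the P10 libraries. In bulk libraries, more cells with the programme and more RNA of it per cell cannot be told apart.

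Selplg, Tmem119 and Ecscr encode proteins of the cell surface. Selplg, the P-selectin ligand PSGL-1, was at 478, 812 and 365 CPM at P3 and 3366, 3013 and 3071 CPM at P10. Even the highest P3 library was far below the lowest P10 library, and the log2 fold change was 2.51 ± 0.30 (adjusted p = 0.0308). Tmem119, a transmembrane protein much used as a microglial marker, was at 782, 1369 and 1100 CPM at P3 and 3300, 3132 and 3181 CPM at P10. Its P10 libraries were nearly equal while P3 replicate 2 was the lowest, and it rose by 1.56 on the log2 scale (SE 0.22, adjusted p = 0.0423). Ecscr, a membrane protein gene also known from endothelium, rose from 161 ± 37.5 to 438 ± 40.6 CPM (log2 fold change 1.45 ± 0.21, adjusted p = 0.049). Among defining endothelial genes Cldn5 had 18 counts in all 6 libraries together, but the summed endothelial markers, of which 4 of 12 could be tested and none was called, were 26.3 to 42.1 CPM at P3 and 54.7 to 59.6 CPM at P10, with Pecam1 at 19.7 ± 13 and 44.5 ± 6.54. Their part in the rise of Ecscr was not tested.

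Secreted proteins made up the other called members. Sparc, a matricellular glycoprotein, was at 4765, 5739 and 3802 CPM at P3 and 14407, 12961 and 13768 CPM at P10, a log2 fold change of 1.52 ± 0.19 (adjusted p = 0.0308). Cst3, which encodes the protease inhibitor cystatin C and had the highest CPM of the called genes, was at 13584, 10655 and 10157 CPM at P3 and 28835, 26841 and 26833 CPM at P10 (log2 fold change 1.26 ± 0.17, adjusted p = 0.0342). All P10 libraries of both genes were above all P3 libraries, and P3 replicate 2, low for Tmem119, was the highest P3 library for Cst3. Olfml3, an olfactomedin-like glycoprotein, rose from 1845 ± 367 to 4515 ± 286 CPM (log2 fold change 1.29 ± 0.19, adjusted p = 0.049).

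The best known receptor of the list fell just short of the threshold. P2ry12, the purinergic receptor by which microglia sense ADP, was at 2861, 5472 and 3722 CPM at P3 and 10860, 11036 and 11854 CPM at P10. The groups did not overlap and the log2 fold change was 1.49 ± 0.24, but the adjusted p was 0.0742. It was called under 9 of the 16 other settings tried, with log2 fold changes of 1.29 to 1.77. Among the 16, batch S232 alone and leaving out P3 replicate 4 are the same fit. Siglech, a sialic acid lectin of microglia, was at 1483 ± 352 and 3145 ± 80.03 CPM (log2 fold change 1.08 ± 0.20, adjusted p = 0.106). P2ry13, a related purinergic receptor, was at 1569 ± 446 and 3284 ± 122 CPM (adjusted p = 0.148).

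Cx3cr1, Csf1r and Sall1, also genes by which microglia are recognised, were not called. Cx3cr1, of which 1 copy carries the reporter, was at 1468, 2622 and 1797 CPM at P3 and 2089, 2029 and 2324 CPM at P10, with overlapping libraries and a log2 fold change of 0.13 ± 0.23. Csf1r, the receptor on which microglia depend for survival, was at 7618 ± 2318 and 9630 ± 1027 CPM (log2 fold change 0.34 ± 0.23). The level of Sall1, which encodes a zinc finger factor that keeps microglial identity, was 224, 235 and 241 CPM at P3 and 347, 239 and 311 CPM at P10. Of its P10 libraries 1 lay among the P3 libraries, and the log2 fold change was 0.36 ± 0.19. Adjusted p-values of the 3 were 0.944, 0.8 and 0.7.

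The list of amoeboid and white matter microglia had calls in the opposite direction. Of its 24 genes 23 were tested. None rose, 4 fell and 19 were not called, with a median log2 fold change of -1.89, which was the same with the 1 gene at 0 in all P10 libraries set to its bound. By the descriptive rule 13 of the 23 were lower at P10 and none higher, against 3.60% and 3.45% of all genes tested. Without P3 replicate 2, 16 were lower, against 5.80% of all genes. With a batch term none of the 23 was called over 19 microglia libraries and 1 over 45 libraries, where the homeostatic list had 10 and 5 calls. Of the 23, 6 were called without P3 replicate 2, 2 without P3 replicate 3, and none without P3 replicate 4 or any 1 P10 library. The summed level was 18907 to 23592 CPM at P3 and 9301 to 10332 CPM at P10.

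Spp1 encodes osteopontin, a secreted ligand of integrins and CD44, and had the largest fall of the 28 genes. It was at 582, 2262 and 645 CPM at P3 and 47.7, 77 and 60.3 CPM at P10. P3 replicate 3 held several times the level of the other P3 libraries, and yet the lowest P3 library was far above every P10 library. The log2 fold change was -4.24 ± 0.57 (adjusted p = 0.0342). Igf1, a growth factor that microglia supply to developing neurons and oligodendrocytes, was at 159.9, 116 and 165 CPM at P3 and 19.7, 29.4 and 26.8 CPM at P10 (log2 fold change -2.54 ± 0.27, adjusted p = 0.0308). Anxa5, which binds phosphatidylserine, was at 121, 181 and 232.3 CPM at P3 and 30.02, 34.8 and 39.99 CPM at P10 (log2 fold change -2.35 ± 0.29, adjusted p = 0.0308). Both had all P10 libraries well below all P3 libraries.

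Of the 28 called genes, 18 had a promoter window in the RefSeq table (GRCm38.p6, 250 bases before to 50 after the start), and Spp1 alone among them held GAGGAAGT, the core motif of the myeloid factor PU.1, searched on both strands. That motif stood in 3.20% of the 32851 windows of the table. The stretch is shown because Spp1 had the largest fall, and the capitals mark the motif, which starts 113 bases before the RefSeq start (chr5:104434962-104435041, plus strand). The search over all called genes was added after the values were seen. In the search as first set, over the called members of the homeostatic list, 3 of the 6 genes (Sparc, Olfml3 and Cst3) had a window and none held the motif.
Spp1: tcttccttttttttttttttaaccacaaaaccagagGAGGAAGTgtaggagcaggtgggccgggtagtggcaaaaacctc

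Receptors of the same list were low and scattered at P3. Clec7a, the beta-glucan receptor dectin-1, was at 19.2, 42 and 105 CPM at P3 and 18.5, 13.7 and 12.8 CPM at P10, with a log2 fold change of -1.89 ± 0.58. Itgax, which encodes the integrin CD11c, was at 16, 26.4 and 51.8 CPM at P3 and 16.3, 0 and 2.39 CPM at P10, and 1 P10 library lay among the P3 libraries. Axl, a receptor that binds phosphatidylserine through its ligands, was at 49, 104 and 226 CPM at P3 and 24.5, 19.1 and 16.8 CPM at P10 (log2 fold change -2.65 ± 0.52). In each of the 3 genes P3 replicate 4 was the highest library, and adjusted p-values were 0.327, 0.763 and 0.125. Gpnmb, a glycoprotein gene of lipid-laden macrophages, ranged from 0.240 to 187 CPM within P3 and was not called either (adjusted p = 0.438). Cd68, a lysosomal glycoprotein of macrophages, was at 1380 ± 290.5 CPM at P3 and 1913 ± 152 at P10 (log2 fold change 0.47 ± 0.20, adjusted p = 0.555).

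Among genes of lipid handling the calls were lower at P10. Of 19 members of the list of lipid transport and efflux that were tested, 2 fell, none rose and 17 were not called, with a median of -0.95. By the descriptive rule 7 were lower and 1 higher, against 3.60% and 3.45% of all genes tested. Without P3 replicate 2 the counts were 11 and 1, against 5.80% and 6.15% of all genes, and 6 members were called. With a batch term 1 member was called over 19 microglia libraries and none over 45. Apoe, the main lipid-carrying apolipoprotein of the brain, was at 14220, 15294 and 16382 CPM at P3 and 6334, 5328 and 5035 CPM at P10, a log2 fold change of -1.46 ± 0.17 (adjusted p = 0.0308). Apoc1, an apolipoprotein that lies beside Apoe in the genome, was at 127, 55.5 and 129 CPM at P3 and 5.21, 5.78 and 6.35 CPM at P10 (log2 fold change -4.17 ± 0.40, adjusted p = 0.0308). P3 replicate 3 held less than the other P3 libraries for Apoc1, and all P10 libraries were close to 6 CPM. Scd2, a stearoyl-CoA desaturase outside the list, was at 339.7, 463 and 399 CPM at P3 and 117, 136 and 146 CPM at P10 (log2 fold change -1.59 ± 0.20, adjusted p = 0.0308), and Anxa2, a phospholipid-binding annexin, at 31.8, 42.5 and 48.3 CPM at P3 and 5.25, 4.21 and 5.83 CPM at P10 (log2 fold change -3.00 ± 0.38, adjusted p = 0.0308).

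Several other lipid genes did not reach the threshold, and are named after their values were seen. Fabp5, a fatty acid binding protein, was at 44.3, 38.3 and 43.8 CPM at P3 and 5.94, 7.39 and 2.77 CPM at P10 (adjusted p = 0.0571). Plin2, which coats lipid droplets, was at 441 ± 161 and 137 ± 15.1 CPM (log2 fold change -1.69 ± 0.28, adjusted p = 0.0785), and Abca1, the cholesterol exporter, at 397 ± 86.9 and 166 ± 21 CPM (log2 fold change -1.26 ± 0.22, adjusted p = 0.0875). Gpx3, a secreted glutathione peroxidase of the amoeboid list, was at 393 ± 95 and 147 ± 13.4 CPM (adjusted p = 0.0619). The groups did not overlap in any of these 4 genes. Lpl, lipoprotein lipase, was at 688 ± 188 and 356 ± 28.6 CPM (log2 fold change -0.95 ± 0.22, adjusted p = 0.198). Cholesterol synthesis had no called member of 24, with a median of 0.53. By the descriptive rule 4 of its genes were higher and none lower, against 3.45% and 3.60% of all genes tested. Without P3 replicate 2 the counts were 2 and 1, against 6.15% and 5.80%. Msmo1, a methylsterol oxidase of that path, was at 88.1 ± 16 and 158 ± 12.4 CPM (adjusted p = 0.22).

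The list of immediate early and dissociation genes, which are known to be induced by stimulation, stress or the isolation of cells from tissue, held calls as well. Of its 32 members tested, 5 rose, none fell and 27 were not called, with a median of 0.91. By the descriptive rule 12 were higher and none lower, against 3.45% and 3.60% of all genes tested. Without P3 replicate 2, 11 were higher, against 6.15% of all genes. In batch S232, that is without P3 replicate 4, 19 of 32 were higher, against 4.94%. As in the homeostatic and amoeboid lists, the number of calls changed when 1 library was left out. Without P3 replicate 2, 2 members were called, and without any 1 of the other 5 libraries none was. Fewer libraries also make the test weaker, and the part of this was not tested. With a term for female or male type over 9 young microglia libraries 1 was called, and with a batch term 4 over 19 and 2 over 45 libraries. The summed level was 3977, 5678 and 8382 CPM at P3 and 12054, 8619 and 11551 CPM at P10. P3 replicate 4 came close to the lowest P10 library. The labels do not say how long the tissue was handled, and the part of handling was not tested.

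Hspa1a, an inducible Hsp70 chaperone, had the largest rise of the 28 genes. It was at 5.04, 5.67 and 2.46 CPM at P3 and 59.9, 35.5 and 53.5 CPM at P10 (log2 fold change 3.50 ± 0.45, adjusted p = 0.0338). Hspa1b is a near-identical copy, so reads of the pair could have been divided between them. It was at 4.55, 3.66 and 10.4 CPM at P3 and 64.2, 33.1 and 47.7 CPM at P10 and was not called (adjusted p = 0.0862). All P10 libraries of both were several times above all P3 libraries. Dnajb1, a co-chaperone of Hsp70, rose from 122 ± 13.8 to 322 ± 50.4 CPM (log2 fold change 1.40 ± 0.20, adjusted p = 0.0423).

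Of the early transcription factors, Atf3 was at 152, 148 and 92.1 CPM at P3 and 534, 493 and 545 CPM at P10 (log2 fold change 2.0 ± 0.23, adjusted p = 0.0308). Jun was at 419, 577 and 450.4 CPM at P3 and 1819, 1112 and 1379 CPM at P10 (log2 fold change 1.57 ± 0.23, adjusted p = 0.0491). Nr4a1, an orphan nuclear receptor, rose from 23.8 ± 7.48 to 127 ± 29.99 CPM (log2 fold change 2.42 ± 0.33, adjusted p = 0.0342). In all 3 the groups lay apart, with P10 replicate 2 the lowest of the P10 libraries. Fos and Egr1, classic members of the list, were not called. Fos was at 160.3, 297 and 920.3 CPM at P3 and 906, 506 and 878 CPM at P10, with P3 replicate 4 above every P10 library, and Egr1 at 605, 1172 and 1974 CPM at P3 and 1284, 951 and 1385 CPM at P10, where P3 replicate 4 was again the highest (adjusted p = 0.827 and 0.993). Junb was at 425 ± 235 and 922 ± 209 CPM without overlap, and was not called (adjusted p = 0.452).

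Of the 28 called genes, 17 were in the 20 lists of gene programmes, with Apoe in 2 of them, and 11 in none. Ifrd1, Rgs1 and Cdkn1a were among the latter. Ifrd1, a transcriptional coregulator of the early response, was at 20.3, 36.1 and 34.7 CPM at P3 and 166, 137 and 151 CPM at P10 (log2 fold change 2.32 ± 0.28, adjusted p = 0.0308). Rgs1, a brake on G protein-coupled receptors, was at 20.8, 14.6 and 15.1 CPM at P3 and 101, 68.2 and 75.9 CPM at P10 (log2 fold change 2.28 ± 0.30, adjusted p = 0.0338). Cdkn1a, the cell cycle inhibitor p21, was at 85.2, 126 and 86.1 CPM at P3 and 311, 285 and 262 CPM at P10 (log2 fold change 1.53 ± 0.22, adjusted p = 0.0448). Each of them had all P10 libraries above all P3 libraries. Ccl4, a chemokine of activated macrophages and the only called member of the 22 chemokines and cytokines tested, rose from 141 ± 14.4 to 412 ± 53.1 CPM (log2 fold change 1.55 ± 0.19, adjusted p = 0.0308).

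The remaining genes that rose are of other kinds. Khdrbs3, an RNA-binding regulator of splicing, was at 4.6, 6.34 and 6.18 CPM at P3 and 33.4, 40.5 and 70.04 CPM at P10, the second largest rise (log2 fold change 3.07 ± 0.42, adjusted p = 0.0342). Serpinf1, the secreted serpin PEDF, was at 65.7, 80.7 and 62.8 CPM at P3 and 259, 240.5 and 276.4 CPM at P10 (log2 fold change 1.89 ± 0.19, adjusted p = 0.0308). Alox5ap, which serves 5-lipoxygenase in leukotriene synthesis, was at 119.9, 158 and 106 CPM at P3 and 424, 429 and 372 CPM at P10 (log2 fold change 1.68 ± 0.21, adjusted p = 0.0308). In each of the 3 genes the lowest P10 library lay well above the highest P3 library. Among immune receptors, Sting1, the adaptor that answers cytosolic DNA, rose from 253 ± 55.4 to 715 ± 7.73 CPM (adjusted p = 0.0338), and Siglece, an inhibitory receptor for sialic acids, from 61 ± 7.33 to 173 ± 6.05 (adjusted p = 0.0338). Susd3, a membrane protein gene, rose from 262 ± 9.2 to 600.2 ± 20.4 CPM and had the smallest change of all called genes (log2 fold change 1.19 ± 0.16, adjusted p = 0.0338).

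**Figure D2:**
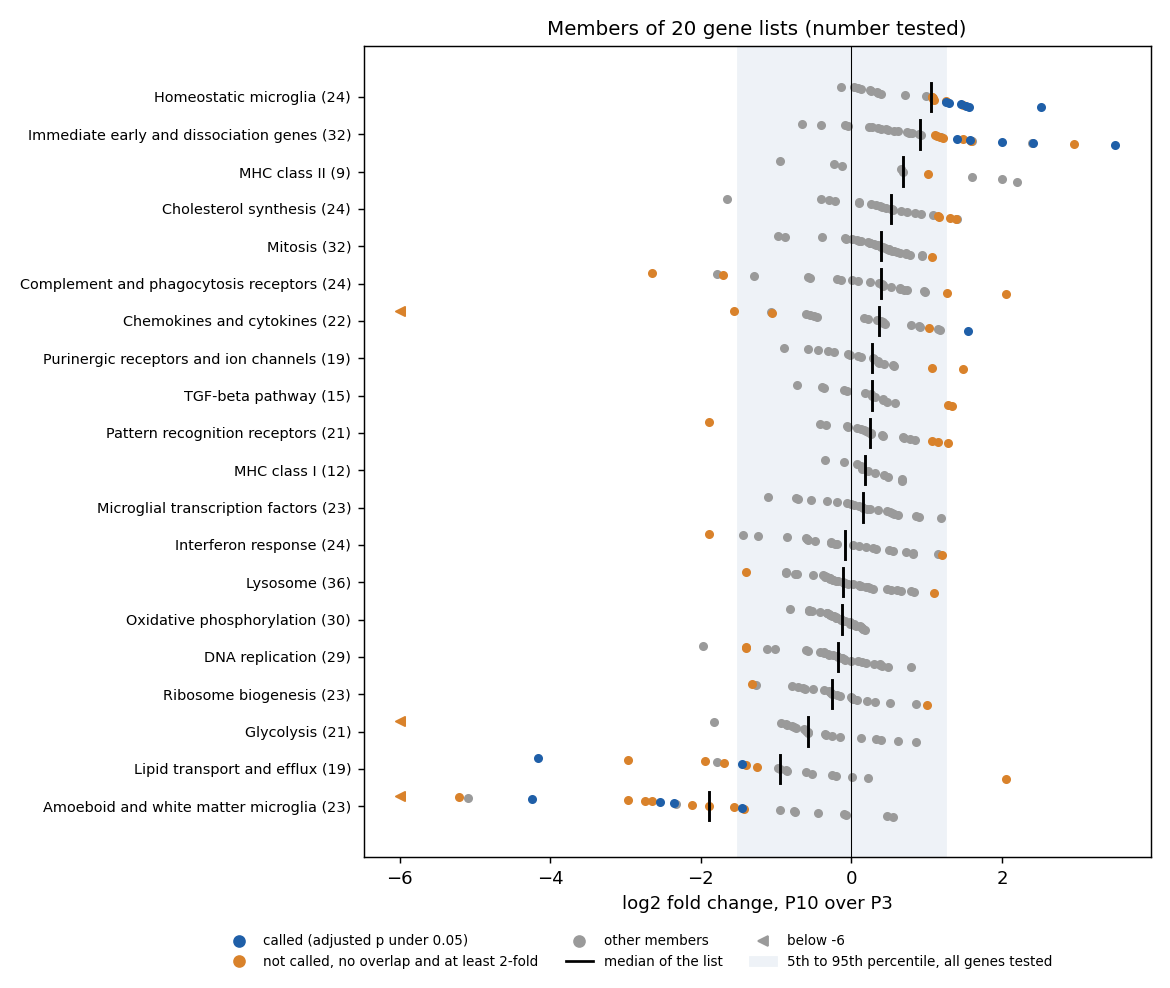
Log2 fold change from P3 to P10 of each tested member of the 20 gene lists, with lists ordered by their median (black bar) and the number tested in brackets. Blue points were called, orange points were not called but had no overlap and a mean changed at least 2-fold, grey points are all others, and the shaded band holds the middle of all genes tested, from -1.50 to 1.26. The homeostatic list lies to the right of 0 with 1 exception, and the amoeboid and white matter list has the lowest median.

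In 15 of the 20 lists no member was called in either direction. None of 29 DNA replication genes and 32 mitosis genes was called, with medians of -0.18 and 0.39. Of the mitosis genes 27 had a positive and 5 a negative log2 fold change, and of the replication genes 9 and 20. The mitosis genes summed to 1497 to 2369 CPM at P3 and 2418 to 2851 at P10, and the replication genes to 1588 to 2463 and 1503 to 1812. By the descriptive rule 1 mitosis gene was higher (3.12%, against 3.45% of all genes tested). Of the replication genes 2 were lower (6.9%, against 3.60%) and none higher. The lower ones were 2 without P3 replicate 2 (against 5.80%) and 5 in batch S232 (17.2%, against 5.36%). Mki67, the proliferation marker Ki-67, was at 194, 60.2 and 24.9 CPM at P3 and 127, 136 and 111 CPM at P10, so that the P3 libraries ranged from well below to above the P10 libraries. Mcm5, a subunit of the replicative helicase, was at 160.3 ± 71.4 and 140.1 ± 56.4 CPM, and Mcm6 at 186 ± 70.5 and 145 ± 14.9. Cdk1, the kinase of entry into mitosis, was at 164 ± 25 and 232.5 ± 21.1 CPM and the topoisomerase gene Top2a at 143 ± 67 and 194 ± 17.6. Proliferation genes were thus detected at both ages. The direction of Mki67 and Mcm5 changed with the libraries and terms in the fit, and that of Top2a only in the fit over 45 libraries.

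Transcription factors of microglia (23 tested, median 0.15) had no called member. Of 24 complement and phagocytosis genes none was called (median 0.39). The C1q subunits C1qb and C1qc were at 10018 ± 1900 and 7766 ± 1235 CPM at P3 and at 12903 ± 1305 and 12562 ± 437 at P10. None of 36 lysosomal genes was called (median -0.11). Ctsb, the protease cathepsin B, was at 16348 ± 3654 CPM at P3 and 8973 ± 736 at P10 (log2 fold change -0.87 ± 0.20, adjusted p = 0.199).

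Antigen presentation gave no call among 12 genes of MHC class I (median 0.18) or 9 of class II (median 0.69). B2m, the light chain of class I, was at 2673 ± 549 and 4245 ± 899.8 CPM and Cd74, the invariant chain of class II, at 230.0 ± 46.6 and 197 ± 21.4. H2-DMa, which loads peptides on class II, was at 88.7 ± 4.59 and 179 ± 9.49 CPM (adjusted p = 0.094). The pattern recognition list (21 tested, median 0.25) held Cd14, the endotoxin co-receptor, at 216 ± 55.9 and 478 ± 9.76 CPM (log2 fold change 1.15 ± 0.22, adjusted p = 0.121). Neither glycolysis (21 tested, median -0.58) nor oxidative phosphorylation (30 tested, median -0.13) had a called member.

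On simulated counts for the same 12029 genes, the test recovered 5 of 67 genes changed 2-fold, 23 of 67 changed 4-fold and 32 of 66 changed 8-fold. Genes not called are therefore not shown to be equal at P3 and P10.

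No marker of another cell type passed the test. Of the lists for 13 other cell types, 10 held genes that could be tested and those for erythroid cells, mural cells and fibroblasts held none. None of the 42 tested genes was called, where 0.233% of all genes tested were. At so small a share, the absence of a call among 42 genes says little about other cells in the libraries. An unadjusted p under 0.05 was found for 6 of the 42, against 1027 of the 12029 genes tested. Of 24 border macrophage markers 13 were tested, and their sum was 794 to 875 CPM at P3 and 601 to 722 CPM at P10. Most of it was Mrc1, the mannose receptor, at 316, 310.1 and 301 CPM at P3 and 349, 369.6 and 324 CPM at P10, and Stab1, a scavenger receptor, at 229.8 ± 17.9 and 157 ± 27.9 CPM. In mMΦ, Mrc1 was at 4589 ± 463 CPM at P3 and 3462 ± 68 at P10. Lymphocyte markers summed to 835 to 997 CPM at P3 and 696 to 956 at P10, most of it Ighm at 687 ± 56.6 and 558 ± 103 CPM. Astrocyte markers summed to 272 to 439 CPM at P3 and 399 to 507 at P10. Erythroid markers summed to at most 1.64 CPM in any library, and fibroblast markers to at most 0.292 CPM at P10 and 19.1 CPM at P3. That highest fibroblast sum was in P3 replicate 2, as was the highest sum of neuron markers, 40.6 CPM.

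The step from P3 to P10 was set beside microglia of E14.5 (embryos, 3 libraries), P21 and P56 (5 each). These levels share the P3 and P10 libraries with the values above and are given as a description. Selplg was at 365, 552, 3150, 6597 and 8274 CPM on average from E14.5 to P56. Tmem119 followed the same order at 669, 1084, 3204, 5651 and 6175 CPM. Sparc instead was highest at P10, with 10594 CPM at P21 and 9609 at P56, although its P21 libraries ranged across the P10 level. Khdrbs3, at 9.48 CPM at E14.5, reached 85 at P21 and 121 at P56.

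The genes that fell had their highest mean at P3 or before. Apoe was at 7609, 15299, 5565, 1278 and 330.0 CPM from E14.5 to P56, and Igf1 at 52.7, 147, 25.3, 5.93 and 2.02 CPM. Spp1 was at 1141 ± 503 CPM at E14.5 and 1163 ± 952 at P3, and at 42.4 CPM at P21. Anxa2 was highest at E14.5, with 91.9 ± 14.4 CPM.

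The immediate early genes had no single direction over age. Atf3 was at 693 ± 118 CPM at E14.5, above both P3 and P10, and at 343 ± 119 CPM at P21. Nr4a1 was at 479.6 ± 113 CPM at E14.5 and Ccl4 at 1277 ± 289, both several times their P10 level. Cdkn1a stood out at P10 alone among the 5 ages, at 94.5, 99.2, 286, 56.6 and 39.5 CPM. P3 was the age with the lowest mean of Rgs1 and Atf3, at 16.8 and 131 CPM.

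**Figure D3:**
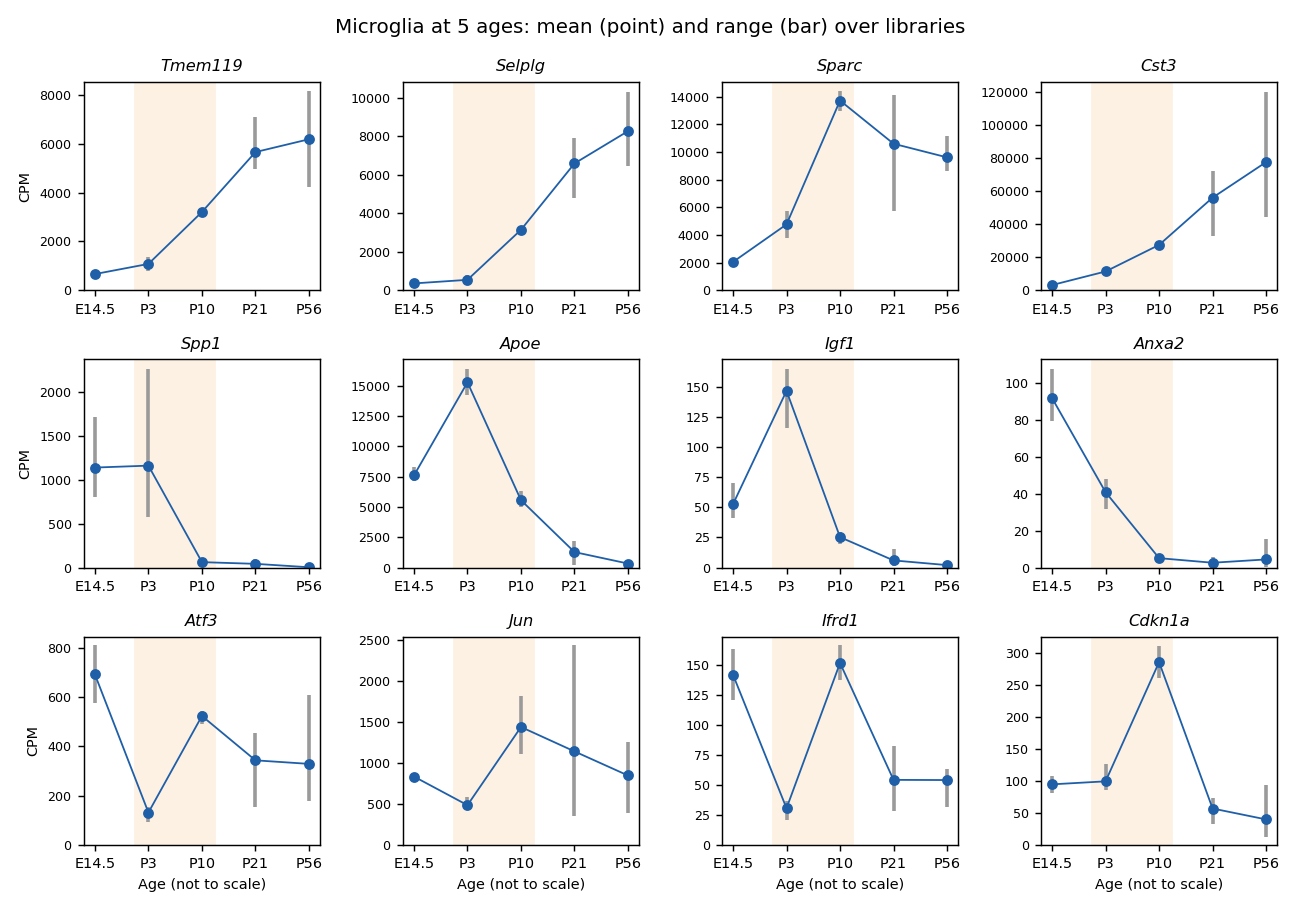
Levels of 12 called genes in microglia at 5 ages, in CPM, with the mean as a point and the range over libraries as a bar (3 libraries at E14.5, P3 and P10, 5 at P21 and P56). The shaded strip marks P3 and P10. Tmem119, Selplg and Cst3 have higher means at each later age. Spp1, Apoe and Igf1 have lower means at P10 than at E14.5 or P3, and Atf3 and Ifrd1 are lower at P3 than at E14.5 or P10.

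To see which changes were particular to microglia, the difference between their change from P3 to P10 and that of mMΦ was tested in 1 fit over 12 libraries. It was called for 55 of 13979 genes (0.393%), with the change more positive in microglia in 15 (0.107%) and more negative in 40 (0.286%), and 1769 genes had an unadjusted p under 0.05. Of the 28 genes called in microglia, 8 also had a called difference: Selplg, Tmem119, Alox5ap and Siglece, whose rise was larger in microglia, and Spp1, Igf1, Apoe and Anxa5. The fit of the difference holds the same microglia libraries on which the 28 genes were chosen. A change in microglia that is too large by chance enters both tests. An overlap above the share of all genes is therefore favoured and is no separate support. In the fit over 45 libraries with a batch term, 2 of the 8 were still called. The P3 and P10 libraries of mMΦ were all of batch S232. Their own step, fitted apart, gave 1038 calls of 12462 genes (8.33%).

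The 4 genes that rose in microglia were not called in mMΦ. Selplg was at 66.4 ± 10.1 CPM at P3 and 74.8 ± 11.1 at P10 in mMΦ, and the difference of changes was 2.34 ± 0.35 on the log2 scale (adjusted p = 0.0111). Tmem119 was at 30.9 ± 1.18 and 25.8 ± 9.06 CPM there (difference 1.82 ± 0.33, adjusted p = 0.04). For Alox5ap the values were 184 ± 4.09 and 185 ± 33.4 CPM (difference 1.66 ± 0.24, adjusted p = 0.0111), and the difference for Siglece was 1.34 ± 0.20 (adjusted p = 0.0111).

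Among the genes that fell, Apoe and Igf1 rose in mMΦ. Apoe was at 27652 ± 3990 CPM at P3 and 50012 ± 3899 at P10 there (log2 fold change 0.85 ± 0.11, adjusted p = 0.00474), against a fall in microglia, a difference of -2.31 ± 0.19 (adjusted p = 0.000496). Igf1 was at 327 ± 16 and 418 ± 19.4 CPM in mMΦ, a small rise just under the threshold (log2 fold change 0.35 ± 0.09, adjusted p = 0.0499). Its difference was -2.89 ± 0.25 (adjusted p = 0.000537). For Spp1 the mMΦ values were 119 ± 53.4 and 303 ± 97.4 CPM, with a change that was not called on its own (adjusted p = 0.0582), and the difference of -5.58 ± 0.75 was the largest of the 8 (adjusted p = 0.00767). Anxa5 was at 788 ± 10.7 and 755 ± 40.2 CPM (difference -2.29 ± 0.28, adjusted p = 0.00499).

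Several stress and early response genes rose in both populations. Of the 21 genes that rose in microglia, 10 were also called higher in mMΦ and none was called lower. In either direction, 8.33% of all genes tested in mMΦ were called. Khdrbs3 and Tmem119 had negative log2 fold changes there (-0.17 and -0.26) and were not called. Hspa1a and Nr4a1 had positive ones and were not called either (adjusted p = 0.127 and 0.244). Among the 10 were Atf3 (log2 fold change 4.68 ± 1.01 in mMΦ, adjusted p = 0.0438), Ifrd1 (4.43 ± 0.54, adjusted p = 0.00526), Rgs1 (3.96 ± 0.36, adjusted p = 0.00164) and Cdkn1a (3.12 ± 0.30, adjusted p = 0.00178). Their log2 fold changes were larger in mMΦ than in microglia, though the difference was not called for these 4 genes (adjusted p from 0.102 to 0.261). The mMΦ libraries of P3 varied widely in some of them, with Jun at 539 ± 428 CPM. Olfml3 and Cst3 also rose in mMΦ, from much lower levels, with Olfml3 at 16.4 ± 1.7 CPM at P3 and 45.2 ± 5.39 at P10. Of the 7 genes that fell, Anxa2 fell in mMΦ too (log2 fold change -1.74 ± 0.19, adjusted p = 0.00319).

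**Figure D4:**
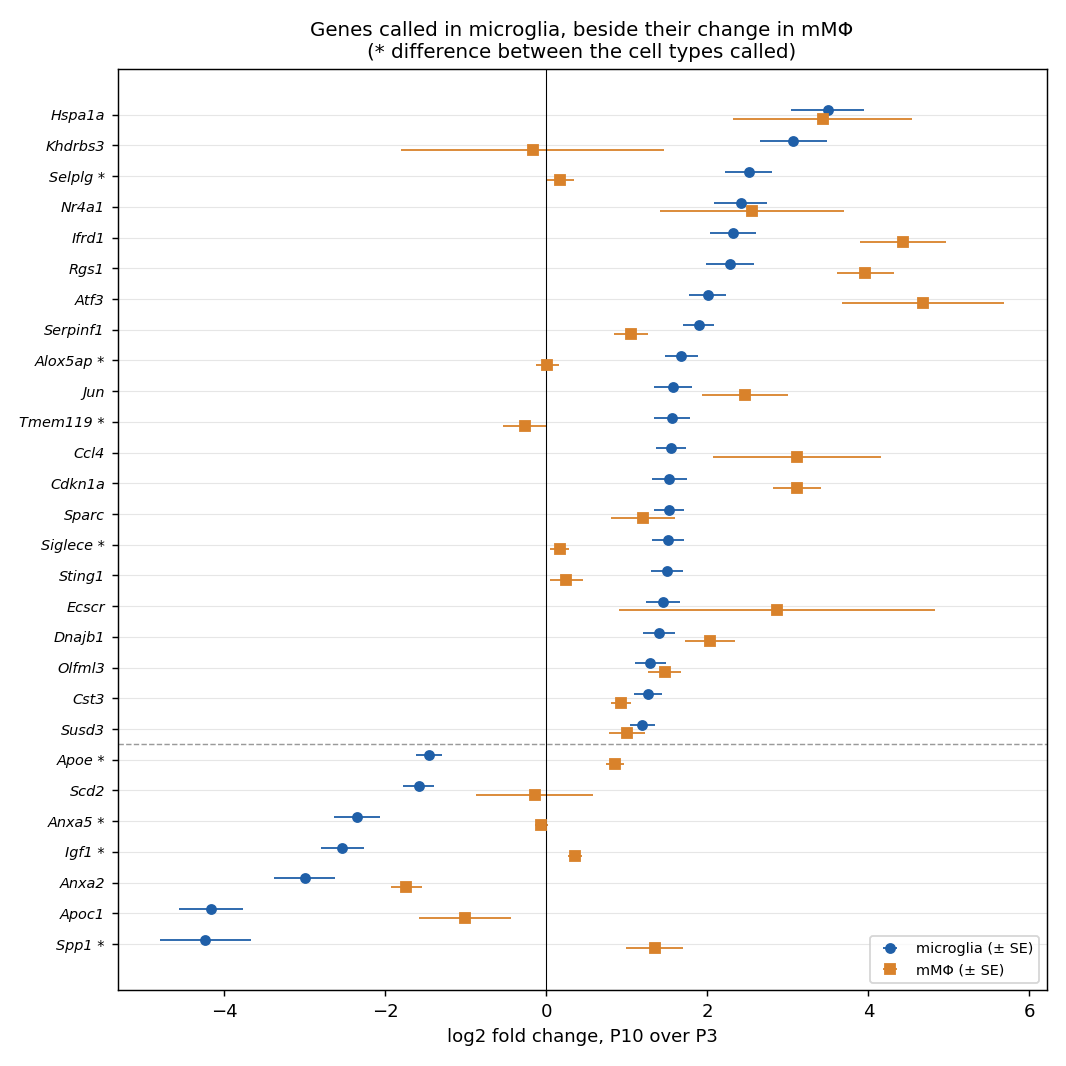
Log2 fold change from P3 to P10 of the 28 genes called in microglia, in microglia (circles) and in mMΦ (squares), with SE as bars. Asterisks mark the 8 genes whose difference between the populations was called. Apoe, Igf1 and Spp1 lie on opposite sides of 0 in the 2 populations, while Ifrd1, Rgs1, Atf3 and Cdkn1a lie to the right of 0 in both.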

How the data were processed

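Cells were sorted into RNAprotect, RNA was taken with the PicoPure kit, cDNA made with the SMARTer Ultra Low Input kit v4 and libraries with Nextera XT, per the labels' protocols. The authors deposited 1 table of integer counts of 53546 genes. Per the submitters' processing notes, bcl2fastq 2.18, STAR 2.7.8a and featureCounts 2.0.2 were used. The genome build is not given in the sources used here, nor are the annotation and strand setting, so overlapping genes are uncertain.

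The 6 libraries (17618151 to 24270739 counts) were fitted alone with edgeR 4.0.16 in R 4.3.3 (robust quasi-likelihood F test, age as the only term), so that the spread is that of these 2 ages. TMM factors and CPM came from all 45 libraries, the 12029 genes tested from filterByExpr (minimum count 10, minimum total 15), and calls from a Benjamini-Hochberg adjusted p under 0.05. Errors are SD over 3 libraries, or SE of a log2 fold change. Library pairs of an age differed far beyond counting error, at chi-square values of 52.3 to 184 per degree of freedom, so scatter between libraries set the precision. Replicates 2 and 3 occur at both ages, but deviations of same-numbered libraries correlated at -0.04 and -0.03, so that the numbers do not pair them.

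Named are, for each direction, the 12 called genes with the largest change at a mean of at least 5 CPM without overlap, and up to 8 others changed at least 2-fold with the highest level. Added are 16 genes followed throughout, up to 4 called and 2 uncalled members of each list, and up to 5 genes a direction for the difference from mMΦ. Further uncalled genes, Fos, Hspa1b, Axl, Gpnmb, Fabp5, Plin2, Abca1 and Gpx3 among them, were chosen after their values were seen. A few genes that these rules name are not reported here. The comparison, the gene lists and this rule were chosen with earlier results of these data known. Settings tried were other scaling, no filter, DESeq2 1.42.0, voom of limma 3.58.1, larger fits with a batch term, batch S232 alone, a replicate block, a term for sex type and leaving out each library.

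On simulated counts the main fit made 63 calls, 3 of them false, and the fit of the difference, on 13979 genes, recovered 0 of 67 genes changed 2-fold, 13 of 67 changed 4-fold and 22 of 66 changed 8-fold. The counts were drawn independently from negative binomial distributions, with the same dispersion of a gene in all groups. No effect of batch, sex or a single library was put in, so they do not give the share of false calls in the real libraries.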

Additional observations from a re-analysis of the deposited data

Results flagged for a closer look

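The change from P3 to P10 differed between microglia and mMΦ, by the test of the difference in edgeR, for 12 of the genes named in the text. Each value is the log2 fold change in microglia minus that in mMΦ, with its SE.

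Of the genes called in microglia, the difference was 2.34 ± 0.35 for Selplg, 1.82 ± 0.33 for Tmem119, 1.66 ± 0.24 for Alox5ap and 1.34 ± 0.20 for Siglece. It was -5.58 ± 0.75 for Spp1, -2.89 ± 0.25 for Igf1, -2.31 ± 0.19 for Apoe and -2.29 ± 0.28 for Anxa5. These genes were called on microglia libraries that the difference also uses, so their differences are no separate support for the changes in microglia.

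The others were not called in microglia alone. For P2ry12 the difference was 1.63 ± 0.27 (adjusted p = 0.0241), with mMΦ at 362 ± 27.9 CPM at P3 and 328 ± 27.6 at P10. Cd74 was at 98.4 ± 9.46 and 398 ± 125 CPM in mMΦ, a difference of -2.24 ± 0.33 (adjusted p = 0.0106). For Cd14, with a positive log2 fold change in both populations, it was -1.79 ± 0.30 (adjusted p = 0.0263), and for Lpl -1.74 ± 0.27 (adjusted p = 0.0155).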

How the results depend on the processing

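Every one of the 28 called genes kept its direction in all 16 other settings. These share libraries with the main fit, and leaving out libraries cannot turn the direction of genes without overlap. Which genes passed the threshold depended on the setting, and each was called in 5 to 10 of the 16. Batch S232 alone and leaving out P3 replicate 4 are the same fit, and both are counted among the 16. Against 28 calls (21 higher, 7 lower), size factors of DESeq2 gave 39 (26 and 13) and TMM over the 6 libraries 38 (25 and 13), no low-count filter 91 (67 and 24), the Wald test of DESeq2 356 (217 and 139), and voom of limma with library weights 60 (44 and 16). Fits with a batch term gave 49 (35 and 14) over 45 libraries, with 8 of the 28 still called, and 47 (43 and 4) over 19 microglia libraries, with 16. Over 9 young microglia libraries with a term for sex type 20 genes were called, 19 of them among the 28. Batch S232 alone gave 0 calls, with 1029 genes at an unadjusted p under 0.05, and so did the replicate block (581), in which only 2 numbers occur at both ages and 4 libraries carry the comparison. Leaving out each library gave 0 to 49 calls, 0 to 27 higher and 0 to 22 lower. Where genes were called, the share of calls that were higher, 75% here, ran from 55.1% without P3 replicate 2 to 91.5% over 19 microglia libraries.

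The 55 differences between microglia and mMΦ became 149 without a filter, 560 with the Wald test of DESeq2, 32 over 45 libraries and 16 with the replicate block. Leaving out each library gave 33 to 163. The 8 genes also called in microglia alone kept their sign in all these settings, but 2 of them were called over 45 libraries, 3 with the replicate block and 6 to 8 when each library was left out. Without microglia P3 replicate 2 there were 115, without microglia P3 replicate 3 163 and without mMΦ P3 replicate 3 120. Fewer came without mMΦ P3 replicates 2 and 1 (36 and 34) and mMΦ P10 replicate 2 (33).

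The sign changed in some settings for 6 genes that were not called. Cx3cr1 was at -0.041 to 0.396 (log2) when each library was left out, the lowest without P3 replicate 2. Mki67 was at -0.97 over 45 libraries, -0.29 over 19, -0.052 with the sex-type term and -0.027 in batch S232, which is also the fit without P3 replicate 4, and it was -0.027 to 1.55 over the fits without 1 library. Mcm5 was at 0.028 with the sex-type term and at -0.468 to 0.232 over the fits without 1 library, positive without P3 replicate 3 and without P10 replicate 3 (0.094). Mrc1 was at -0.081 with the sex-type term and Top2a at -0.024 over 45 libraries. Egr1 was at 0.39 over 45 libraries, 0.60 over 19, 0.441 in batch S232, 0.446 with the replicate block, 0.203 with the sex-type term and -0.383 to 0.441 over the fits without 1 library. The cause of these shifts was not tested. The counts by the descriptive rule without P3 replicate 2 or 4 were added after seeing the data. With 3 libraries an age and the scatter seen here, most 2-fold changes would be missed.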

Other observations

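Beyond the called genes, 26 genes had an adjusted p between 0.05 and 0.1, 17 of them with a higher and 9 with a lower mean at P10. In all 26 the libraries of the 2 ages did not overlap, which a choice by p-value on the same libraries favours. Some have known roles outside the lists, and they are named after their values were seen. Lyz2, the lysozyme gene of myeloid cells, was at 992, 1245 and 1233 CPM at P3 and 540.2, 552 and 482 CPM at P10 (log2 fold change -1.14 ± 0.17, adjusted p = 0.052). Nceh1, a hydrolase of cholesterol esters, was at 64 ± 15.6 and 15.4 ± 2.35 CPM (log2 fold change -2.05 ± 0.32, adjusted p = 0.0571). Gpr183, a receptor for oxysterols, was at 184 ± 27.3 and 408 ± 37.5 CPM (adjusted p = 0.0716), and F11r, a junctional adhesion molecule, at 683 ± 171 and 1685 ± 56.2 CPM (adjusted p = 0.0773). Pmepa1, a target and inhibitor of TGF-beta signalling, was at 143, 141 and 135 CPM at P3 and 382, 248 and 424 CPM at P10 (adjusted p = 0.0846), with its P3 libraries close together and its P10 libraries spread. None of these genes passed the threshold.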
